A study of Mus musculus with 16 samples.

Results

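The odorant receptor genes described here are those of mouse chromosomes 1, 3, 4, 6, 8, 13 and 15, which carry smaller receptor clusters. They were taken by position and symbol, as every probe set with an Olfr-number symbol whose name places it on 1 of these 7 chromosomes, with Olfr16 left out. This gave 104 genes with 1 probe set each, of 1091 odorant receptor probe sets and 22206 probe sets tested on the array. Chromosome 1 holds 26 of them, chromosome 3 holds 2, chromosome 4 holds 23, chromosome 6 holds 27, chromosome 8 holds 5, chromosome 13 holds 12 and chromosome 15 holds 9. With receptor genes less than 1 Mb apart counted as 1 cluster, they fall into 17 clusters.

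The arrays measured RNA of sorted olfactory mucosa cells from C57BL/6 mice, and every mouse carried the S100a5-tauGFP reporter, in which S100a5, a gene whose transcription follows sensory neuron activity, drives GFP. Mice of both sexes, 7 to 12 weeks old, were kept singly for 40 h under a clean air flow of 3.1 L/min, and from 26 h onward received vehicle (filtered air) or undecanal, an 11-carbon aldehyde odorant, for 10 s every 20 min. Pools of 3 mice, 24 mice in 8 pools, were each sorted by flow cytometry into 2 fractions, which gave 4 arrays in each of 4 groups. These groups are vehicle titled GFP-, vehicle titled GFP+, undecanal titled GFP- and undecanal titled GFP+.

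The sample titles and the sample characteristics give opposite GFP signs for 16 of 16 arrays. S100a5 itself was lower in the fraction titled GFP+ in 8 of 8 pools, by a log2 difference of -0.91 in vehicle pools (SE 0.17, 4 arrays per group, limma adjusted p = 7.15e-04) and of -0.97 in undecanal pools (adjusted p = 3.94e-04). The fractions are therefore called titled GFP+ and titled GFP- throughout. If the characteristics are right, each difference between fractions below and its interaction with undecanal changes sign, while undecanal differences within a fraction keep theirs.

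Odorant receptors are G protein-coupled receptors of olfactory sensory neurons. Each mature neuron transcribes 1 allele of 1 receptor gene, so in sorted tissue the level of a receptor's mRNA follows the number of neurons that chose it and the amount of mRNA in each. In these bulk samples fewer neurons of a type and less RNA per neuron cannot be told apart. Receptor genes lie in genomic clusters that grew by duplication, and genes next to each other are often close paralogs. Probe sets of near-identical paralogs may share signal, so values of close relatives are uncertain to that extent.

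Upstream sequence is known to carry sites for LHX2-type homeodomain factors and for Olf1/Ebf factors, which act in receptor transcription. Of the 104 genes, 90 have a promoter window in RefSeq (GRCm38.p6), but 62 of these windows start at the start codon, so 28 windows with an annotated upstream start were read, each the 250 bases before the start. Of those 28 genes, 5 were called higher and 11 lower in arrays titled GFP+ of vehicle pools, by the test given below, and 12 were not called. The 4 windows printed here belong to genes of 1 cluster that moved oppositely (Olfr372 and Olfr374 on chromosome 8, with Olfr373 between them) and to neighbours that moved the same way (Olfr287 and Olfr288 on chromosome 15). Each is written 5′ to 3′ on the gene's strand, and capitals mark an Olf1/Ebf core.

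Olfr372, chr8:72057410-72057659, plus strand: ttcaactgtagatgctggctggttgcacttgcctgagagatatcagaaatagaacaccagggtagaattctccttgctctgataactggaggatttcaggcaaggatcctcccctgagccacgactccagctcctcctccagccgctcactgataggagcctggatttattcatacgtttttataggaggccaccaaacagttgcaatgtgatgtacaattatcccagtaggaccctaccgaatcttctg

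Olfr374, chr8:72106790-72107039, plus strand: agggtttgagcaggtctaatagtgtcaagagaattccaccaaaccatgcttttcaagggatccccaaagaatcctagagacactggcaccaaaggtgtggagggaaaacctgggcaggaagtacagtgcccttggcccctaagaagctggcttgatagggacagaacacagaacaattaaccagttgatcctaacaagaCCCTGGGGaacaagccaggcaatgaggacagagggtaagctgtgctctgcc

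Olfr287, chr15:98221057-98221306, minus strand: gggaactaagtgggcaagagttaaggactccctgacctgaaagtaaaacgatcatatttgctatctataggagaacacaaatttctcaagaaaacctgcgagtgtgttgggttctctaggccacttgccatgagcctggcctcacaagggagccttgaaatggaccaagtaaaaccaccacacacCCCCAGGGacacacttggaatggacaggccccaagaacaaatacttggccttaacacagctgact

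Olfr288, chr15:98195543-98195792, minus strand: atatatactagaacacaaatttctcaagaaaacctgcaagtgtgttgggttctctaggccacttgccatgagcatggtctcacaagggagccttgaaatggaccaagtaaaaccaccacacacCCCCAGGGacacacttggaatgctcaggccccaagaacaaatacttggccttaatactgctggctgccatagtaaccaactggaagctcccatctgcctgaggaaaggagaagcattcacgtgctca

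The core searched was CCCNNGGG, which reads the same on both strands. It lies 51 bases before the start of Olfr374, 65 before that of Olfr287 and 127 before that of Olfr288, and these letters are not in the Olfr372 window. The windows of Olfr287 and Olfr288 share an unbroken run of 67 bases that contains the core, and 177 of 188 aligned bases are identical (94.1%). Among all 378 pairs of the 28 windows, the next longest shared run was 13 bases. The core was present in 3 of 28 windows (10.7%), in 6.8% of 234 windows of other odorant receptors read the same way and in 12.2% of 30936 promoters. The homeodomain core TAATTA was present in 2 of 28 windows (7.1%), against 18.8% of other receptors and 4.4% of all promoters. Its variant TAATGA, searched on both strands, was present in 4 of 28 windows (14.3%), against 33.3% and 8.2%. A match describes the letters only and not a bound site.

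Most of the 104 receptors were measurable. Values are log2 probe set summaries, and a level is called above background when it exceeds 4.80, the 95th percentile of group means of 358 vomeronasal and taste receptor probe sets, genes with little expression in the main olfactory epithelium. Of the 104, 95 were above this level in at least 1 group, 87 of them in all 4 groups, and 9 in no group (Olfr427, Olfr248, Olfr1402, Olfr159, Olfr1337, Olfr456, Olfr371, Olfr1535 and Olfr282). Levels are compared only between arrays of 1 probe set, since probe sets differ in response. Arrays of a group correlated at r = 0.989 to 0.993 over all probe sets and at 0.949 to 0.981 over the 104 receptors.

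The sort separated these receptors strongly and in both directions. In vehicle pools 27 of 104 were higher in arrays titled GFP+ (26.0%) and 34 were lower (32.7%), by limma with Benjamini-Hochberg adjustment over all 22206 probe sets at 0.05. Over all probe sets the same test called 8.82% higher and 5.12% lower. In undecanal pools, which share no array with the vehicle pools, 28 were higher and 28 lower (26.9% each), against 8.83% and 4.36% of all probe sets. The other 987 odorant receptor probe sets had 22.3% higher and 36.5% lower in vehicle pools, and with undecanal 23.9% higher and 34.3% lower; the difference between the 2 receptor sets was not tested. Differences of the 104 ran from -5.15 to 6.58 on the log2 scale in vehicle pools (median -0.19, against -0.11 for all probe sets) and from -4.66 to at least 6.80 in undecanal pools (median -0.16, against -0.11). The other receptors had medians of -0.37 and -0.25. The 358 vomeronasal and taste receptor probe sets had medians of -0.28 and -0.24, and in vehicle pools 1 of them was called higher and 17 lower.

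The split between higher and lower depended on scaling. Centring each array on the median of all probe sets moved the median of all probe sets in vehicle pools from -0.11 to -0.47 and gave 24 higher and 50 lower in vehicle pools (32.4% of calls higher, against 44.3%) and 26 higher and 46 lower in undecanal pools (36.1%, against 50.0%). Centring on the median of all odorant receptors gave 33 higher and 28 lower in vehicle pools (54.1%), and with undecanal 32 and 26 (55.2%). Of the calls named below on the deposited scale, those lost under these scalings are given where they occur.

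Mostly the same receptors were called in the 2 sets of pools, which share no array but were fitted together with a shared estimate of the spread. Of the receptors called higher, 25 were called in both sets, which is 92.6% of the vehicle list and 89.3% of the undecanal list. Of those called lower, 27 were called in both, 79.4% and 96.4% of the lists. The matching overlap over all probe sets or the other receptors was not computed. The fraction titled GFP+ was the higher one in 8 of 8 pools for 31 receptors, the lower one in 8 of 8 for 34, and the direction was mixed for 39. The shares of all probe sets with such a direction were not computed. Olfr159, Olfr371 and Olfr1337, below background in all groups, are among those with 8 of 8. Groups did not overlap at all for 26 receptors higher and 32 lower in vehicle pools (9.83% and 8.26% of all probe sets), and with undecanal for 28 and 32 (9.43% and 7.83%). Another 40 receptors were called with neither agent, and the uncalled differences in vehicle pools ran from -1.36 to 1.09 with a median SE of 0.31.

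**Figure D1:**
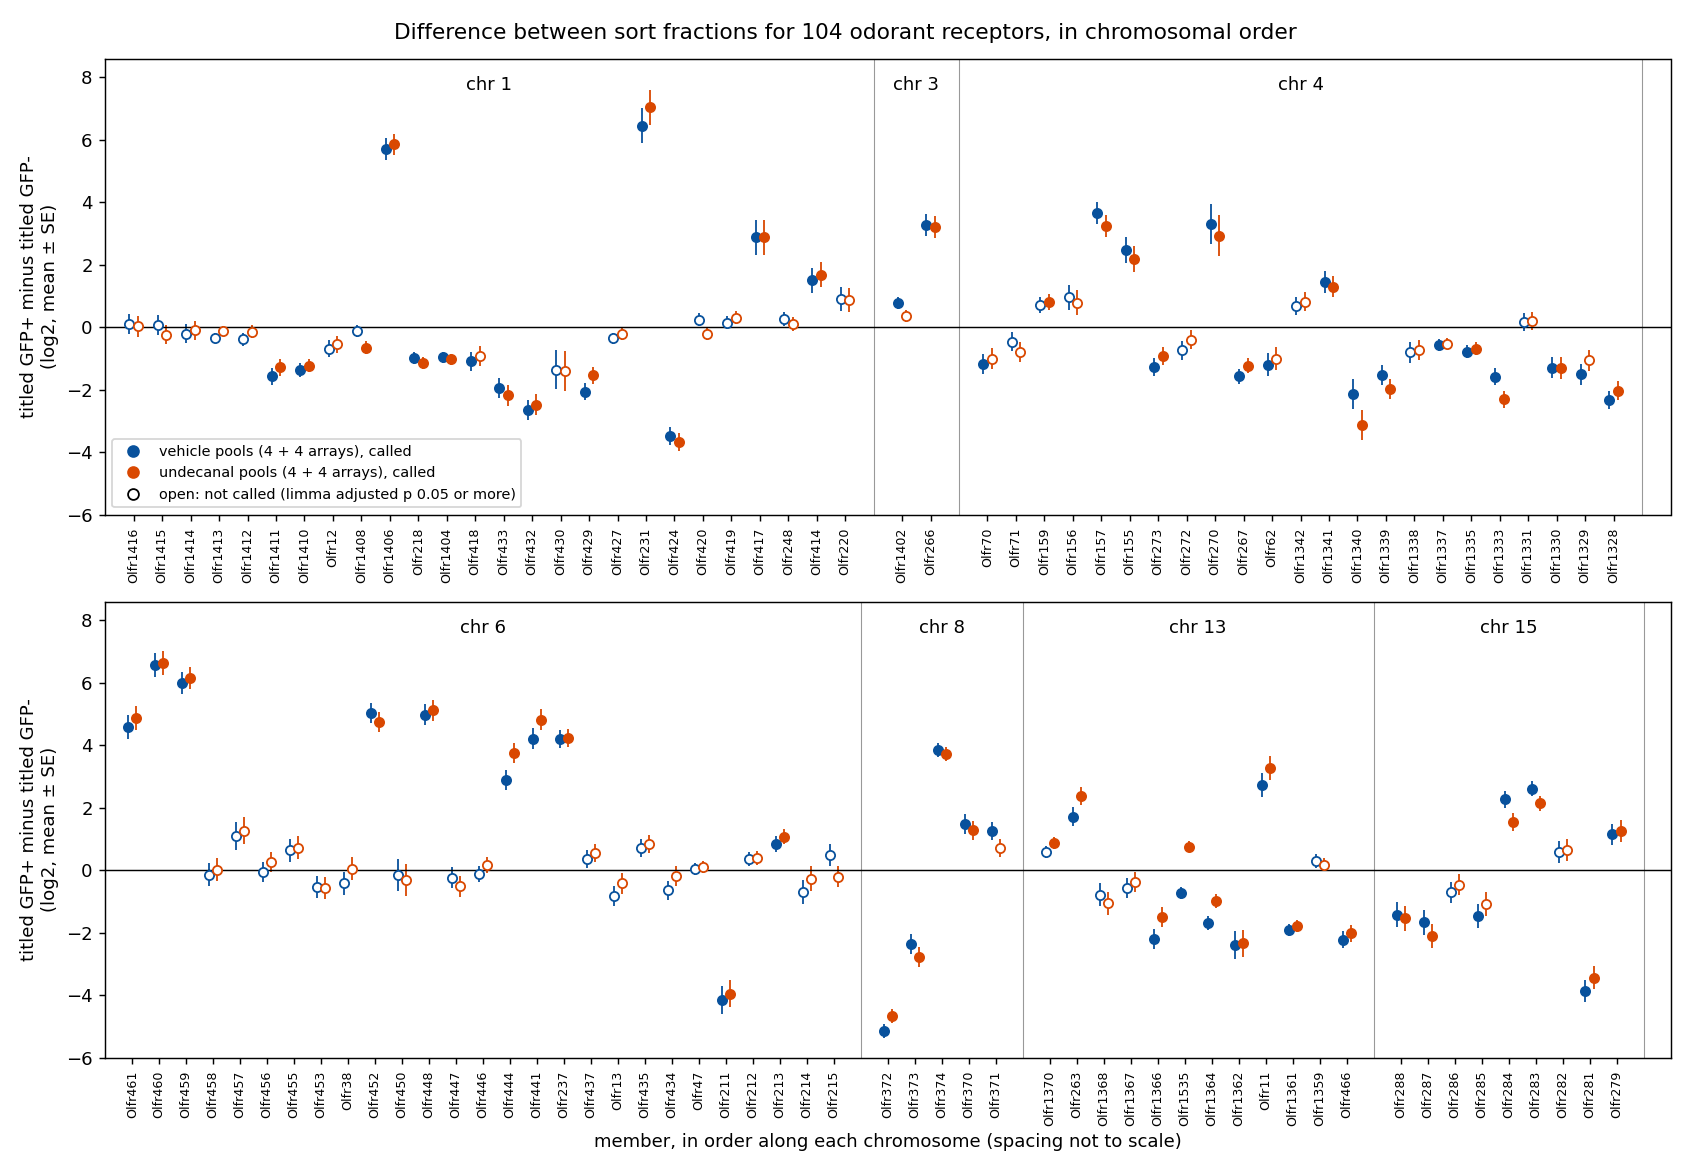
Log2 difference between the fractions titled GFP+ and titled GFP- for each of the 104 receptors, in order along each chromosome, with its SE; blue points are vehicle pools, orange points undecanal pools (4 + 4 arrays each), and open points were not called. The called points of chromosome 6 lie above 0 except those of Olfr211, and those of the large chromosome 4 cluster lie below it except those of Olfr1341. Olfr1535 is the receptor called on opposite sides of 0.

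The 7 chromosomes differed in the balance of calls. On chromosome 6, 9 of 27 receptors were higher and 1 lower in vehicle pools, whereas on chromosome 4 the counts were 4 and 12 of 23 and on chromosome 1 they were 4 and 9 of 26. Chromosome 13 had 2 higher and 6 lower of 12, chromosome 15 had 3 and 4 of 9, chromosome 8 had 3 and 2 of 5, and both receptors of chromosome 3 were higher. In undecanal pools the counts of higher and lower were 4 and 9 on chromosome 1, 1 and 0 on chromosome 3, 5 and 8 on chromosome 4, 9 and 1 on chromosome 6, 2 and 2 on chromosome 8, 4 and 5 on chromosome 13 and 3 and 3 on chromosome 15. Differences between chromosomes were not tested, since genes of a cluster are not independent.

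**Figure D2:**
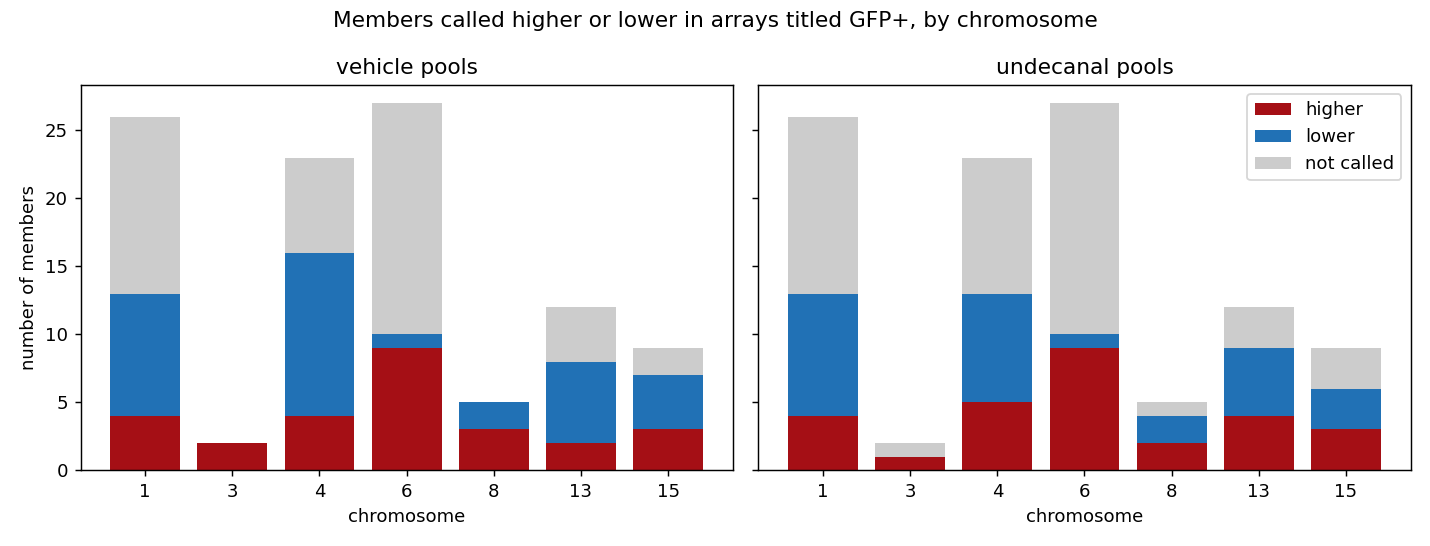
Number of receptors on each chromosome called higher, called lower or not called in arrays titled GFP+, for vehicle pools (left) and undecanal pools (right). Chromosome 6 has 9 higher and 1 lower with either agent, and chromosome 4 has 12 lower in vehicle pools and 8 in undecanal pools.

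On chromosome 1, 2 receptors, Olfr231 and Olfr1406, had differences between fractions far above those of the rest. Both lie in the cluster that runs from Olfr1408 to Olfr220. Olfr231 had values of 7.47, 3.70, 5.95 and 4.04 in vehicle pools 1 to 4 titled GFP- and of 12.03, 11.9, 11.27 and 11.77 in the same pools titled GFP+. In undecanal pools it had 4.63, 4.99, 4.44 and 4.21 titled GFP- and 12.2, 11.68, 11.24 and 11.29 titled GFP+. The groups are far apart, and the titled GFP- values scatter about the background level. The vehicle difference was 6.45 (SE 0.56, limma adjusted p = 1.24e-07). In undecanal pools the titled GFP- mean of 4.57 was below background, so the difference is given as at least 6.80, or at least 111-fold.

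Olfr1406 was well above background in both fractions. It read 7.73, 6.98, 5.63 and 6.81 in vehicle pools titled GFP- and 12.72, 12.74, 12.26 and 12.23 titled GFP+, a difference of 5.70 (SE 0.34, adjusted p = 8.38e-10) or 52.1-fold. The difference in undecanal pools was 5.85, or 57.7-fold. Of the measured genes on either side of it, Olfr218 was lower in the same arrays (-0.997 in vehicle pools, -1.14 in undecanal pools), and Olfr1408 differed by -0.12 in vehicle pools (not called) and by -0.66 in undecanal pools (adjusted p = 0.0398). The undecanal call of Olfr1408 was lost with the pool as a fixed replicate block, with receptor median centring, and without vehicle pool 4 or undecanal pool 1, 3 or 4. Beyond Olfr218, Olfr1404 was lower (-0.96 and -1.03).

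The largest fall on chromosome 1 was that of Olfr424, which lies next to Olfr231 among the measured genes and belongs to the same MOR105 family by its RefSeq synonym. Olfr424 read 12.21, 12.04, 12.25 and 12.91 in vehicle pools titled GFP- and 8.87, 8.88, 8.88 and 8.86 titled GFP+. The difference was -3.48 in vehicle pools (SE 0.30, adjusted p = 9.85e-08) and -3.67 in undecanal pools. Olfr432 differed by -2.65 and -2.48 on the log2 scale, Olfr433 by -1.96 and -2.19, and Olfr429 by -2.06 and -1.54. Olfr433 and Olfr432 are neighbours and the 2 members of family MOR123.

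The other calls on chromosome 1 were smaller. In the cluster from Olfr1416 to Olfr12, 2 of 8 were lower with each agent, Olfr1411 (-1.57 and -1.29) and Olfr1410 (-1.38 and -1.23), and none was higher. Olfr417 was higher by 2.88 with each agent, with titled GFP- values from 5.27 to 7.67 and titled GFP+ values from 8.64 to 9.71 in vehicle pools. Olfr414 was higher by 1.5 and 1.68, but its vehicle call was lost without vehicle pool 1, 2 or 4 and its undecanal call without undecanal pool 1 or 4. Olfr419, with the highest mean of the chromosome, did not pass (0.15, SE 0.21, in vehicle pools, 12.56 titled GFP- and 12.7 titled GFP+ on average).

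On chromosome 3 each receptor lies alone. Olfr266 had 6.10, 4.80, 5.28 and 4.39 in vehicle pools titled GFP- and 8.79, 8.31, 8.57 and 8.02 titled GFP+. The groups did not overlap, and the difference was 3.28 (SE 0.35, adjusted p = 1.81e-06) or 9.69-fold, with 3.19 in undecanal pools. Olfr1402 was below background in all 4 groups, between 2.99 and 4.54 on the 16 arrays, so no fold is given. Its vehicle call (0.77, adjusted p = 0.0114) was lost without vehicle pool 3 (0.56) and after array median centring (0.41), and it was not called in undecanal pools (0.37).

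Chromosome 4 holds the OR37 receptors, a group expressed by neurons in a central patch of the epithelium and known for responses to long-chain fatty aldehydes. They are described for this known property, outside the rule by which other genes are named and after their values were seen. RefSeq lists Olfr155 as mOR37a, Olfr156 as mOR37b, Olfr157 as mOR37c and Olfr159 as mOR37e. All 4 were higher in the fraction titled GFP+ of 8 of 8 pools, but only Olfr155 and Olfr157 passed the test with both agents.

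Olfr157 had 5.12, 4.43, 4.37 and 4.13 in vehicle pools titled GFP- and 8.75, 8.46, 7.41 and 8.05 titled GFP+. Its titled GFP- mean was below background in vehicle pools, so the difference was at least 3.37, or at least 10.3-fold (fitted 3.65, adjusted p = 4.14e-07), and in undecanal pools it was 3.25 (adjusted p = 1.90e-06). Olfr155 read 9.49, 10.48, 7.94 and 8.12 in vehicle pools titled GFP- and 11.65, 11.55, 11.3 and 11.39 titled GFP+, a difference of 2.46 (SE 0.42, adjusted p = 3.09e-04), with 2.17 in undecanal pools (adjusted p = 1.08e-03). The fractions of neither receptor overlapped, and the titled GFP- values of Olfr155 spread far more than its titled GFP+ values.

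Olfr156 differed by 0.95 and 0.78 (adjusted p = 0.130 and 0.244) and its groups overlapped with both agents. Olfr159 was below background in all groups, with 0.70 in vehicle pools (adjusted p = 0.0742) and 0.82 in undecanal pools (adjusted p = 0.0369), and the latter call was lost under 5 of 15 alternatives, including array median centring and without undecanal pool 1 or 4. Of the other 2 measured receptors in that cluster, Olfr70 differed by -1.18 (called in vehicle pools, lost without vehicle pool 1 and with receptor median centring) and -1.003 (adjusted p = 0.0527), and Olfr71 by -0.46 and -0.78 (not called).

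The largest cluster of chromosome 4, from Olfr62 to Olfr1328, leaned the other way. In vehicle pools 9 of its 13 measured receptors were lower in arrays titled GFP+ and 1, Olfr1341, was higher, and in undecanal pools 6 were lower and 1 was higher. Family MOR259 accounts for 8 of them, of which 6 were lower in vehicle pools and 4 in undecanal pools. Olfr1328 read 10.76, 10.92, 10.71 and 9.83 in vehicle pools titled GFP- and 7.69, 8.17, 8.85 and 8.22 titled GFP+. The difference was -2.32 (SE 0.29, adjusted p = 1.24e-05), and -2.03 in undecanal pools. Every titled GFP+ array lay below every titled GFP- array.

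Olfr1340 differed by -2.14 in vehicle pools (SE 0.47, adjusted p = 3.95e-03) and by -3.14 in undecanal pools (adjusted p = 9.68e-05). The measured gene beside it, Olfr1341, was higher by 1.45 and 1.29, with the vehicle call lost without vehicle pool 1 and the undecanal call lost without undecanal pool 1, 2 or 4. Several falls in this cluster were modest: Olfr62, Olfr1337, Olfr1335, Olfr1330 and Olfr1329 each lost their vehicle call when at least 1 vehicle pool was left out, Olfr62 and Olfr1337 also when some undecanal pools were, and Olfr62, Olfr1337 and Olfr1335 with receptor median centring. The Olfr1337 call, of a receptor below background in all groups, was also lost with the pool as a fixed replicate block.

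Between these clusters lie Olfr273, Olfr272 and Olfr270, with Olfr267 on its own. Olfr270 had 7.44, 7.65, 4.04 and 5.64 in vehicle pools titled GFP- and 9.51, 10.3, 9.06 and 9.13 titled GFP+, a difference of 3.31 (SE 0.64, adjusted p = 1.20e-03), and 2.93 in undecanal pools. Its titled GFP- pools spread over more than 3 log2 units while the groups did not overlap. Olfr273, with the highest mean of the chromosome, was lower by -1.27 (adjusted p = 4.65e-03) and -0.93 (adjusted p = 0.0393). The undecanal call of Olfr273 was lost without undecanal pool 2, 3 or 4, without vehicle pool 4 and with receptor median centring (-0.85). Olfr267 was lower by -1.57 and -1.23.

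Chromosome 6 held the most receptors called higher in arrays titled GFP+, 9 of 27 with each agent, and it also holds the most members. The pair Olfr461 and Olfr460 and, at the next cluster, Olfr459 are the 3 members of family MOR120, and all 3 were higher with both agents. Olfr460 had 6.69, 6.11, 6.12 and 5.02 in vehicle pools titled GFP- and 12.84, 13.16, 12.08 and 12.16 titled GFP+. In undecanal pools it had 7.21, 5.29, 5.54 and 5.71 titled GFP- and 12.95, 12.47, 12.27 and 12.56 titled GFP+. The difference was 6.58 in vehicle pools (SE 0.39, adjusted p = 7.73e-10) or 95.4-fold, and 6.63 in undecanal pools or 98.9-fold, the same in both sets within its error.

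Olfr459 read 5.67, 4.69, 3.92 and 5.28 in vehicle pools titled GFP- and 11.24, 11.44, 10.67 and 10.21 titled GFP+, a difference of 6.00 (SE 0.35, adjusted p = 7.75e-10). In undecanal pools the titled GFP- mean was below background, and the difference was at least 6.12, or at least 69.5-fold. Olfr461 was below background in the titled GFP- fraction with both agents, with a difference of at least 3.46 in vehicle pools (at least 11-fold) and at least 3.86 in undecanal pools. Its titled GFP+ values ran from 7.29 to 8.86 in vehicle pools and from 8.17 to 9.44 in undecanal pools.

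The cluster from Olfr459 to Olfr47 has 20 measured receptors, of which 6 were higher and none lower with each agent. Besides Olfr459 these were Olfr452, Olfr448, Olfr444, Olfr441 and Olfr237. Olfr452 (family MOR257) was at least 4.36 higher in vehicle pools, at least 20.5-fold, with titled GFP+ values of 9.07, 9.29, 9.19 and 9.09. The other 4 belong to family MOR261, which has 11 members here: Olfr448 differed by 4.98 and 5.12, Olfr441 by 4.21 and 4.82, Olfr237 by 4.19 and 4.23, and Olfr444 by 2.89 and 3.75. The 7 remaining MOR261 members did not pass in either direction, and the differences in this family ran from -0.82 to 4.98 in vehicle pools.

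Olfr446 lies between the MOR261 members Olfr447 and Olfr444 and has the highest mean of the chromosome. It averaged 13.87 titled GFP- and 13.75 titled GFP+ in vehicle pools, and its difference (-0.12, SE 0.25) did not pass. In the separate cluster from Olfr211 to Olfr215, Olfr211 was the 1 receptor of the chromosome called lower. Olfr211 had 13.64, 13.93, 14.4 and 14.41 in vehicle pools titled GFP- and 8.91, 9.99, 10.83 and 10.08 titled GFP+. This is a difference of -4.15 (SE 0.44, adjusted p = 1.48e-06), 17.7-fold lower, and of -3.95 in undecanal pools. Olfr213 in the same cluster was higher by 0.84 and 1.08, with the vehicle call lost after array median centring and without vehicle pool 2, 3 or 4.

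**Figure D3:**
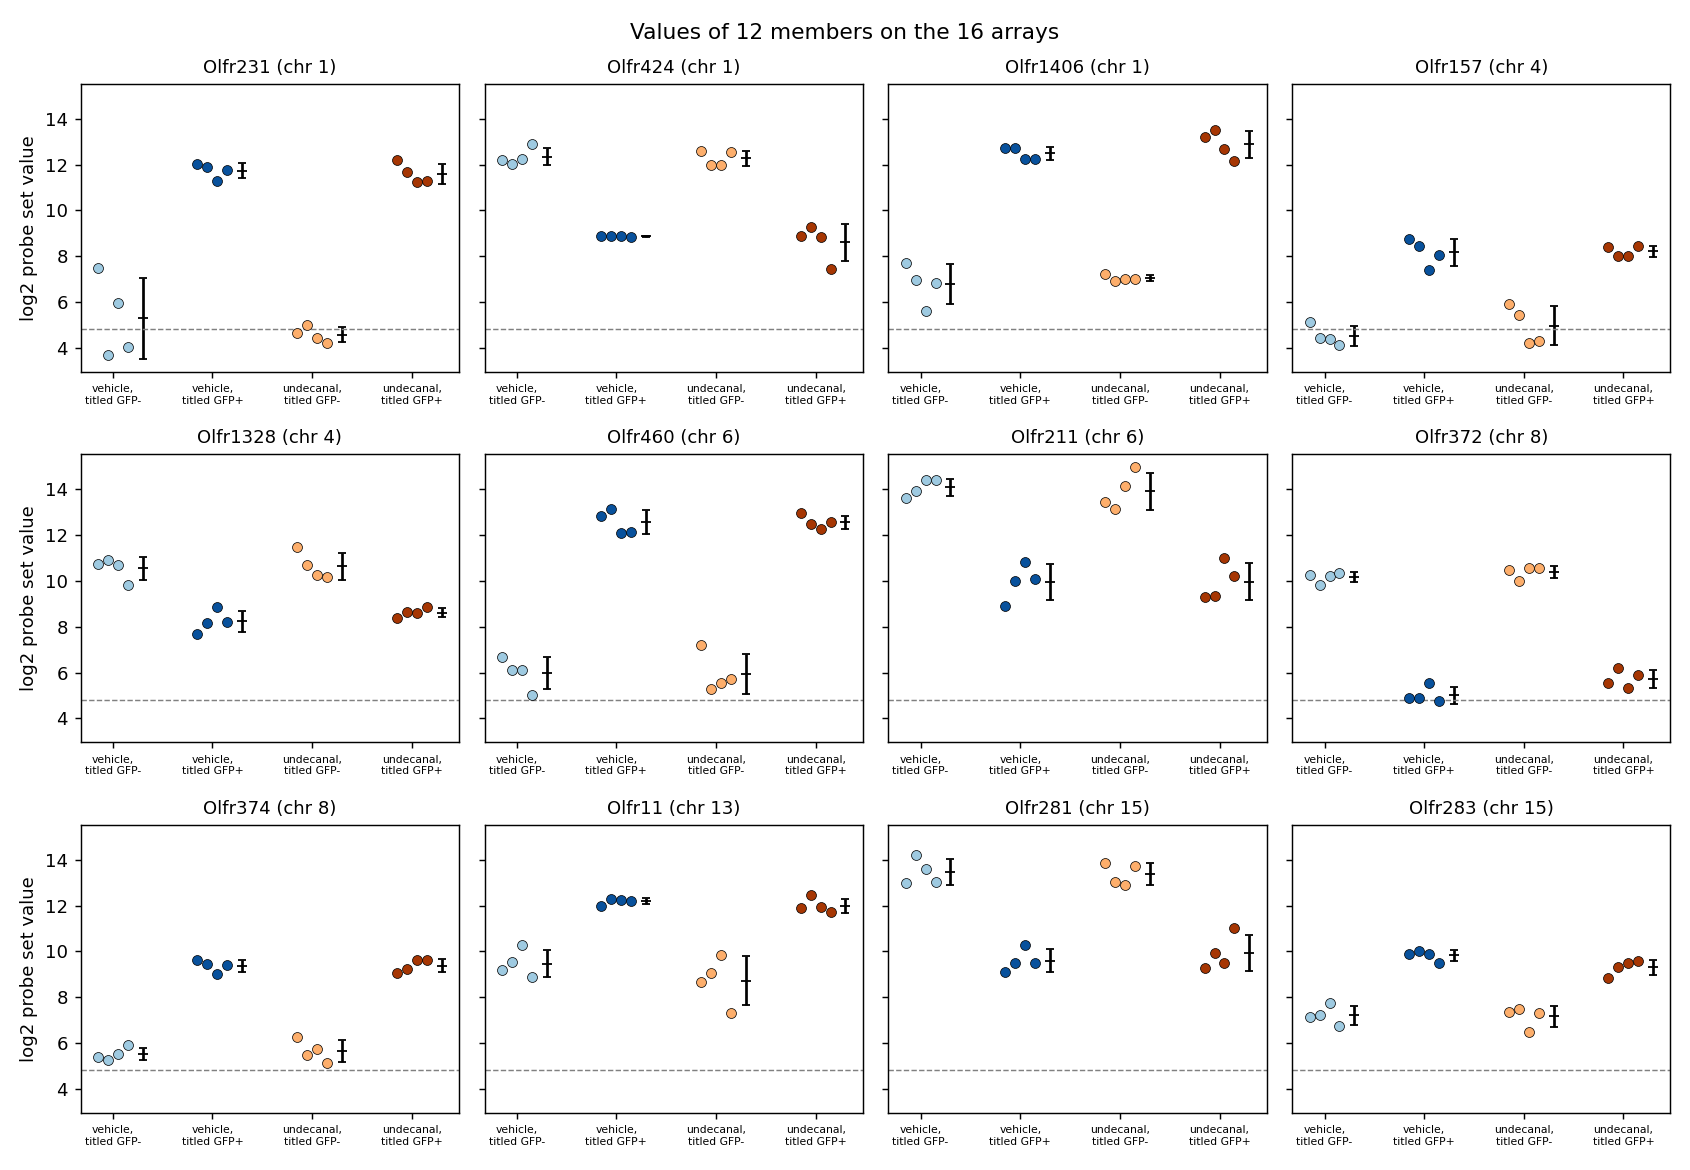
Log2 probe set values of 12 receptors on the 16 arrays, by group (4 points per group, with the mean ± SD beside them); the dashed grey line is the background level of 4.80. In each panel the fractions separate with both agents, for example Olfr372 near 10 titled GFP- and near 5 titled GFP+ in vehicle pools and Olfr374 the reverse.

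On chromosome 8, Olfr372, Olfr373 and Olfr374 form 1 cluster, and Olfr374 opposed the other two. Olfr372 read 10.25, 9.84, 10.23 and 10.34 in vehicle pools titled GFP- and 4.88, 4.87, 5.56 and 4.75 titled GFP+, close to the background level. In undecanal pools it read 10.47, 9.99, 10.55 and 10.57 titled GFP- and 5.53, 6.19, 5.31 and 5.90 titled GFP+. The difference was -5.15 (SE 0.22, adjusted p = 1.29e-11), 35.5-fold lower, in vehicle pools and -4.66 in undecanal pools, the lowest differences of the 104 receptors. Olfr373, of the same family MOR282, was lower by -2.35 (SE 0.32) and -2.77.

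Olfr374 had 5.41, 5.25, 5.52 and 5.91 in vehicle pools titled GFP- and 9.63, 9.44, 9.02 and 9.42 titled GFP+. The difference was 3.85 (SE 0.22, adjusted p = 6.67e-10), or 14.4-fold, in vehicle pools and 3.73 in undecanal pools, and the groups lay far apart. Their upstream windows are the first 2 printed above. Olfr370, which lies alone, was higher by 1.48 (adjusted p = 2.30e-03) and by 1.28 in undecanal pools, the latter call lost without undecanal pool 1 or 4. Olfr371 was below background in all groups, with a vehicle call (1.25, adjusted p = 5.30e-03) that was lost without vehicle pool 3 and no call in undecanal pools.

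On chromosome 13, neighbouring receptors of family MOR256 went both ways. Of its 10 members, which lie in the cluster from Olfr1370 to Olfr1359, 2 were higher and 4 lower in vehicle pools. Olfr11 read 9.19, 9.52, 10.27 and 8.90 in vehicle pools titled GFP- and 12.0, 12.31, 12.24 and 12.21 titled GFP+, a difference of 2.72 (SE 0.39, adjusted p = 5.05e-05), with 3.26 in undecanal pools. Olfr263 was higher by 1.71 and 2.37. On the 2 sides of Olfr11 among the measured genes, Olfr1362 and Olfr1361 were both lower.

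Olfr1362 had 12.07, 12.04, 13.05 and 11.9 in vehicle pools titled GFP- and 9.56, 9.82, 11.02 and 9.12 titled GFP+. Vehicle pool 3 was the highest in both fractions, and the difference was -2.38 (SE 0.44, adjusted p = 8.01e-04), with -2.35 in undecanal pools. Olfr1361, with the highest mean of the chromosome, had 13.4, 13, 13.07 and 13.35 titled GFP- and 11.31, 11, 11.54 and 11.3 titled GFP+, a difference of -1.92 (SE 0.19, adjusted p = 6.25e-07), with -1.78 in undecanal pools. Olfr466, the only measured receptor of its cluster, was lower by -2.22 and -2.01.

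Olfr1535 was the only 1 of the 104 called in opposite directions, -0.73 in vehicle pools (adjusted p = 0.0122) and 0.76 in undecanal pools (adjusted p = 9.70e-03). It was below background in all 4 groups, with values between 2.85 and 4.55 over the 16 arrays, so no fold is given. The vehicle call was lost without vehicle pool 1, 3 or 4 and with receptor median centring, and the undecanal call without undecanal pool 3 and with array median centring.

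On chromosome 15 the 9 measured receptors form 1 cluster with calls in both directions. Olfr281 had 13.01, 14.22, 13.6 and 13.03 in vehicle pools titled GFP- and 9.09, 9.52, 10.28 and 9.51 titled GFP+, a difference of -3.87 (SE 0.37, adjusted p = 3.48e-07), 14.6-fold lower. In undecanal pools the difference was -3.45. Olfr283 was higher, with 7.14, 7.24, 7.73 and 6.72 titled GFP- and 9.90, 10.04, 9.87 and 9.49 titled GFP+ in vehicle pools, a difference of 2.61 (SE 0.24, adjusted p = 2.20e-07) and of 2.15 in undecanal pools. Olfr284 was below background in the titled GFP- fraction, so its rise was at least 1.76 in vehicle pools (at least 3.38-fold) and at least 1.496 in undecanal pools. Olfr281, Olfr283 and Olfr284 belong to 1 family, MOR160.

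Olfr288 and Olfr287, whose windows share the 67-base run printed above, moved together. Olfr287 read 9.53, 9.73, 10.63 and 10.29 in vehicle pools titled GFP- and 7.603, 8.25, 8.80 and 8.84 titled GFP+, a difference of -1.67 (SE 0.39, adjusted p = 5.67e-03), with -2.11 in undecanal pools. Olfr288 read 7.72, 8.85, 9.01 and 7.99 titled GFP- and 6.12, 6.75, 7.98 and 7.04 titled GFP+, a difference of -1.42 (SE 0.40, adjusted p = 0.0224), with -1.54 in undecanal pools. The Olfr288 call was lost without pool 1 or 2 of the agent in question. Both are of family MOR286, whose other measured member, Olfr286, differed by -0.71 and did not pass.

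Over all 17 clusters, neighbours were not uniform. Of 87 adjacent pairs of measured receptors within clusters, both genes were called in vehicle pools in 28 pairs, and 20 of these had the same direction (5 both higher, 15 both lower) and 8 opposite directions. The opposite pairs include Olfr231 with Olfr424, Olfr1406 with Olfr218, Olfr373 with Olfr374, and Olfr11 with each of its neighbours. The differences of adjacent genes correlated at Pearson r = 0.155 over the 87 pairs, given as a description because neighbours share paralogy and arrays. By RefSeq synonyms, 103 receptors carry 1 MOR family number and 1 carries several. This gives 23 family numbers, with the number 0 of Olfr455 counted among them, and 14 have 3 or more members here.

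The 2 fractions differed in other ways alongside the receptors. Of 14 immune cell markers, 14 were higher in arrays titled GFP+ with both agents (median difference 8.40 in vehicle pools), and their mean level ran from 4.35 to 4.95 over vehicle arrays titled GFP- and from 11.5 to 12.3 over those titled GFP+. In the titled GFP- fraction of vehicle pools 7 of them, by group mean, were below background. Of 10 immature neuron markers 7 were higher in vehicle pools and 5 in undecanal pools, with mean levels of 11 to 11.2 titled GFP- and 12.7 to 12.8 titled GFP+ in vehicle pools. Progenitor markers were higher for 5 of 6 measured of 8 listed, with mean levels of 4.16 to 4.64 and 6.74 to 7.33. Sustentacular markers were higher for 5 of 9 (6.74 to 7.83 and 8.55 to 9.28) and microvillar markers for 8 of 8 (5.21 to 5.45 and 7.42 to 8.25). By group mean in vehicle pools titled GFP-, 3 progenitor, 1 sustentacular and 4 microvillar markers were below background. In undecanal pools titled GFP-, 9 immune, 4 progenitor, 1 sustentacular and 4 microvillar markers were below background. The called markers Cdk1 (progenitor) and Chat (microvillar) were below it in both fractions with both agents. So was the progenitor marker Neurog1, which was called in undecanal pools only. No member of these 5 lists was called lower, although the uncalled Ncam1 (-0.26, immature neuron) and Muc2 (-0.09, sustentacular) had negative differences in vehicle pools. The part of these lists in the receptor differences was not tested. Over all probe sets 8.82% were higher in vehicle pools and 8.83% in undecanal pools. The lists were chosen with earlier results of these data known, so their counts are a description only.

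Of the receptors' own pathway, the genes that passed were lower. Omp, the marker of mature olfactory sensory neurons, averaged 18.83 in both fractions of vehicle pools. Of 18 olfactory transduction genes, 4 were lower in arrays titled GFP+ of vehicle pools and none higher, namely the chloride channel gene Ano2 (-0.51), the phosphodiesterase genes Pde1c (-0.65) and Pde4a (-0.53) and the exchanger gene Slc24a4 (-0.60), and 3 were lower in undecanal pools, beside 5.12% and 4.36% of all probe sets lower. The median difference of the 18 was -0.17 in vehicle pools, beside -0.11 for all probe sets. Of 12 genes tied to receptor choice, Lbr, which encodes the lamin B receptor (1.07), and Cbx5, which encodes a heterochromatin protein (0.72), were higher in vehicle pools and Lbr alone in undecanal pools, while the other 10 did not pass. All 5 activity-raised genes, S100a5 among them, were lower in vehicle pools and 4 in undecanal pools.

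No receptor of the 104 passed the test for an undecanal effect. The comparison asks whether the level of a receptor's mRNA in a fraction differs between mice given undecanal and mice given vehicle. It cannot tell the number of neurons of a type sorted into the fraction from the amount of mRNA in each. Of 104, 0 were called in arrays titled GFP+, 0 in arrays titled GFP- and 0 in the interaction, by limma with adjustment over all probe sets, which called 0.0045% of all probe sets higher in arrays titled GFP+ and none in the rest. That probe set was the activity-raised gene Pcdh10, a protocadherin (1.91, SE 0.22, adjusted p = 2.05e-03). At an unadjusted p under 0.05 the members numbered 5 in arrays titled GFP+ (4.8%), 4 in arrays titled GFP- (3.8%) and 2 in the interaction (1.9%), beside 2.72%, 4.12% and 2.63% of all probe sets. The median 95% interval of a member spans 0.67 on either side of its undecanal difference. That interval is not adjusted for the number of probe sets, and differences of up to -1.08 (Olfr1535) did not pass after adjustment.

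In arrays titled GFP+ the smallest p among the 104 was that of Olfr372, which had 4.88, 4.87, 5.56 and 4.75 with vehicle and 5.53, 6.19, 5.31 and 5.90 with undecanal. The groups overlapped through vehicle pool 3, and the difference of 0.72 (95% interval 0.26 to 1.17) had a limma adjusted p of 0.999. Olfr1364 (0.57, SE 0.23) and Olfr1361 (0.42, SE 0.19) followed, both on chromosome 13. No receptor was higher without overlap of the groups and 1, Olfr270, was lower (1.11% and 0.76% of all probe sets), at -0.81 (SE 0.64).

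In arrays titled GFP- the leading receptors were Olfr1535 and Olfr1408. Olfr1535 read 4.27, 4.00, 4.55 and 4.11 with vehicle and 3.53, 3.25, 2.99 and 2.85 with undecanal, all below background, a difference of -1.08 (95% interval -1.48 to -0.68, adjusted p = 0.179). Olfr1408 read 11.17, 10.2, 10.35 and 10.63 with vehicle and 11.55, 11.26, 11.56 and 11.45 with undecanal, a difference of 0.87 (0.43 to 1.298, adjusted p = 0.814). These 2 are the receptors whose agents did not overlap in this fraction, 1 in each direction, beside 1.18% of all probe sets higher and 1.02% lower. Olfr215 followed (0.77, SE 0.34), with vehicle values from 8.31 to 10.33 that overlapped its undecanal values of 9.96 to 11.05.

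The interaction asks whether the difference between fractions changed with undecanal. Olfr1535 had the smallest p (1.49, 95% interval 0.93 to 2.05, adjusted p = 0.708), followed by Olfr1364 (0.68, SE 0.32) and Olfr1333 (-0.73, SE 0.38). For Olfr1364 the difference between fractions was -1.68 in vehicle pools and -0.99 in undecanal pools, and undecanal pool 4 had the higher value titled GFP+ (12.63 against 12.46). Its undecanal fraction call was lost without undecanal pool 2. For Olfr1333 it was -1.58 and -2.31.

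None of the OR37 receptors passed the test for an undecanal effect. Whether undecanal is a ligand of any of them was not tested. The undecanal difference in arrays titled GFP+ was -0.01 for Olfr155 (95% interval -0.88 to 0.87), -0.18 for Olfr156 (-1.01 to 0.65), 0.05 for Olfr157 (-0.69 to 0.79) and -0.15 for Olfr159 (-0.67 to 0.38). In arrays titled GFP- it was 0.29 for Olfr155 (-0.59 to 1.17), -0.01 for Olfr156 (-0.84 to 0.83), 0.45 for Olfr157 (-0.29 to 1.19) and -0.26 for Olfr159 (-0.79 to 0.27).

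**Figure D4:**
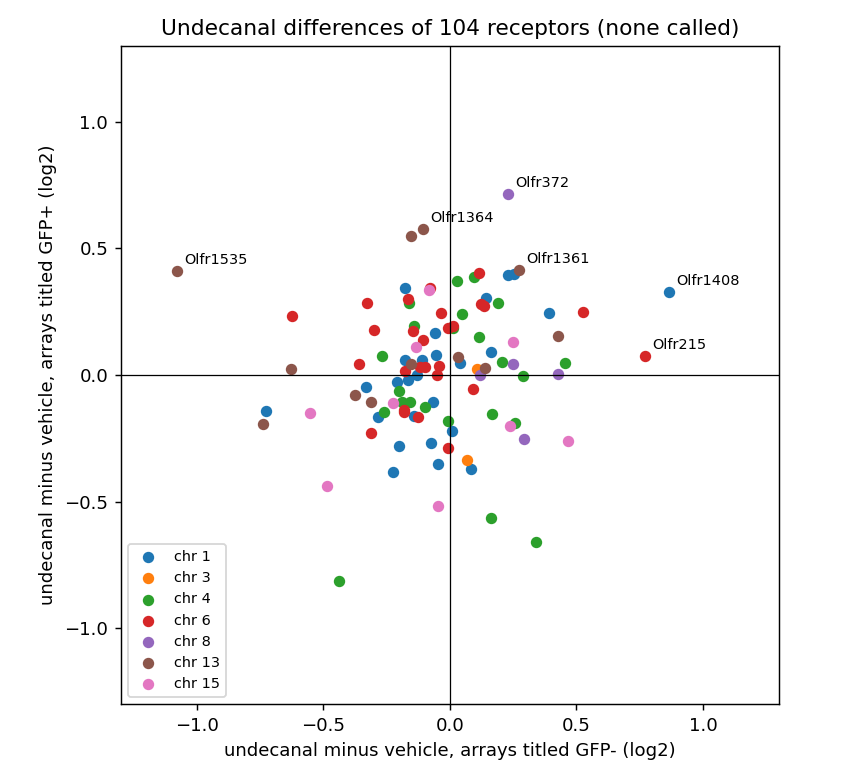
Undecanal minus vehicle on the log2 scale for each of the 104 receptors, in arrays titled GFP- (x axis) and titled GFP+ (y axis), coloured by chromosome. The points gather around 0 on both axes, with Olfr1535 (-1.08 and 0.41) and Olfr1408 (0.87 and 0.33) at the edges, and none was called.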

How the data were processed

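The authors deposited log2 probe set summaries for 16 Clariom S arrays, which the submitters' processing notes credit to Affymetrix Expression Console. Its version, algorithm and annotation are unstated in the sources used here. Values of tested probe sets ran from 1.67 to 19.7. Precision is limited by having 4 arrays per group. Control rows (6640 of 28846) were left out. Of 22206 probe sets tested, 19572 had 1 gene symbol, all matched to RefSeq (GRCm38.p6) by gene ID, and 2634 had none.

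The deposited log2 values were fitted without further scaling with limma 3.58.1 (R 4.3.3), as means of 4 groups taken from the titles, with moderated variances and Benjamini-Hochberg adjustment over all probe sets. The fit was also run on simulated data with independent noise on every array, which does not model the correlation between fractions of a pool. Contrasts were titled GFP+ minus titled GFP- with each agent, undecanal minus vehicle in each fraction, and the interaction. With a group mean below background, a difference is a bound against that level. No batch was named in the sources used here.

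Fractions of a pool come from the same 3 mice, since 24 mice make 8 pools. Their deviations from group means correlated at 0.05 to 0.27, over 0.1 in 6 of 8 pools, and the main fit had no pool term.

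Named were, per chromosome, both receptors of chromosome 3 and elsewhere up to 2 with the highest and 2 with the lowest vehicle difference among those called and above background in a group, the receptor with the highest mean, and the 3 with the smallest p in each undecanal contrast and the interaction. Receptors described beyond this rule, including cluster and family neighbours and the OR37 group, were chosen after their values were seen. Members and gene lists were chosen with earlier results of these data known. Alternatives were array median, receptor median and quantile scaling, a filter on dim probe sets, another prior, fitting only the groups compared, pool as a replicate block, and leaving out each pool.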

Additional observations from a re-analysis of the deposited data

Results flagged for a closer look

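In 136 combinations of 34 named receptors and 4 groups, 2 arrays lay apart from the other 3 of their group beyond Dixon's 95% critical value, which chance alone exceeds in about 1 in 20 groups. Olfr1362 read 13.05 in vehicle titled GFP- replicate 3, against 11.9 to 12.07 in the other pools. Olfr372 read 5.56 in vehicle titled GFP+ replicate 3, against 4.75 to 4.88 in the others.

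For Olfr1535 the difference between fractions went down in all 4 vehicle pools and up in all 4 undecanal pools. The interaction was 1.49 and did not pass (limma adjusted p = 0.708), and the probe set was below background in all 4 groups.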

How the results depend on the processing

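Over the 16 alternatives the number of receptors called between fractions ran from 51 to 74 for vehicle and from 47 to 72 for undecanal. The count called lower in undecanal pools rose to 46 with array median centring, from 28. Of the calls, 21 of 27 higher and 25 of 34 lower in vehicle pools, and 22 of 28 in each direction in undecanal pools, were kept in every alternative that tested them. With each pool left out in turn, 51 to 61 receptors were called in vehicle pools (24 to 27 higher, 27 to 34 lower) and 47 to 58 in undecanal pools (23 to 29 higher, 24 to 30 lower). The undecanal contrasts and the interaction gave 0 calls in all 15 alternatives run for each.

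With the pool as a random replicate block the counts of higher and lower were 29 and 34 for vehicle and 30 and 34 for undecanal, and as a fixed replicate block 30 and 35, and 30 and 32; neither moved a count by over 1.5 times. The fixed block ended the calls of Olfr1337 for vehicle and Olfr1408 for undecanal. Fraction differences were followed by sign for the receptors named by their vehicle difference, by their mean or as those of chromosome 3. Among these the sign reversed for 2, neither of them called. Receptors named only by an undecanal contrast or the interaction were followed in that contrast alone. Centring shifts all differences of an array alike, so small differences of other receptors, Olfr1408 in vehicle pools among them, also change sign under it. Olfr419 in vehicle pools became -0.21 with array median centring and ran from -0.086 to 0.40 with a pool left out, and -0.050 in undecanal pools with array median centring, while Olfr446 in vehicle pools became 0.12 with receptor median centring and ran from -0.39 to 0.083 with a pool left out, and -0.20 in undecanal pools with array median centring. The cause was not tested. Signal near background limits 9 receptors below it in every group.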
